A study of Nematostella vectensis with 66 samples.

Results

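Whole-animal transcript levels of adult Nematostella vectensis, the starlet sea anemone, were compared between ZT9 and ZT5, which are 14 h and 10 h on the clock. ZT is zeitgeber time, the hours counted from the onset of light. The comparison rests on 14 of the 66 sequencing libraries of the series, with 7 libraries at each hour. At each of the 2 hours 4 libraries came from single animals (letters A to D) and 3 from pools of 2 animals (letters E to G). Membership was taken from the time point and sample type given for each library, and no measured value was used to place a library. This pair of hours was chosen with earlier results of these data known, as a morning hour at which many transcripts are high and an afternoon hour at which many are low.

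The animals descended from anemones collected at a Massachusetts salt marsh and had been kept in the laboratory for several generations. For the study they were acclimated to a salinity of 30 ppt and placed in 10 submerged mesh pens in the sediment of a tidally restricted pool. All 14 libraries share this origin and treatment, no drug or mutation was involved, and the 2 groups differ by label in the hour of collection. Pens are not named for single libraries, so hour and pen cannot be told apart. Replicates are separate animals or separate pools. Each hour is its own time point by label, with no repeat of an hour on another day given. The p values therefore measure spread between animals or pools and not between days.

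Nematostella vectensis is a burrowing cnidarian of estuarine mud, a habitat in which light, temperature, salinity and oxygen change through the day and with the tide. As in other animals with a circadian clock, some of its transcripts, among them clock and cryptochrome genes, are known to follow the daily light cycle. The deposited table names gene models by identifier only and does not pair them with gene names, and 0 rows of the RefSeq gene table at hand carried these identifiers. Genes are therefore named here by identifier, at most 2 in each direction for a comparison, and no function is given.

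Each value is a count of reads per gene model, and levels are given as CPM, the counts rescaled to a common library total after adjustment with edgeR's TMM factors. The scaling brings the bulk of gene models to a common level, so that a gene can gain or lose only relative to the others. In whole animals, fewer cells of a type and less RNA per cell cannot be told apart.

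The ZT9 libraries were the deeper ones and spread their reads over more genes. Totals were 617700 ± 83500 counts at ZT5 and 742300 ± 109000 at ZT9 (SD, n = 7 each), and the difference of 124700 counts had an adjusted p of 0.0457 in an exact two-sided permutation test within sample type, over 4 library measures. It no longer passed at that level without any 1 of 10 of the 14 libraries, where the adjusted p reached 0.112. Between 16435 and 17868 gene models had at least 1 count at ZT5, and between 17287 and 19270 at ZT9 (difference of means 1228, exact permutation adjusted p = 0.0171). This difference did not pass without ZT5 pooled F or without ZT5 pooled G (exact permutation adjusted p = 0.0629 for either). With every library thinned to the lowest total of the 14, 507303 counts, the numbers were 16460 ± 393 and 17210 ± 339 (SD, n = 7 each). The 100 most abundant gene models took 30.3% ± 2.74 of the counts at ZT5 and 26.7% ± 2.98 at ZT9 (SD, n = 7 each), with an exact permutation adjusted p of 0.0514. The 1000 most abundant took 65.6% ± 2.44 and 59.7% ± 4.41. The TMM factors did not overlap, at 0.865 to 1.01 for ZT5 and 1.03 to 1.17 for ZT9.

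The first question was which transcripts differed between the morning and the afternoon hour. More gene models fell than rose. Of 10916 tested, 1019 (9.33%) were lower and 455 (4.17%) were higher at ZT9, with edgeR's quasi-likelihood test fitted to all 66 libraries, with hour and sample type as terms and a threshold of 0.05 on the adjusted p. The median falling gene model was lower by 1.05 on the log2 scale, a fold of 2.07, and the median rising one was higher by 0.968, a fold of 1.96. More than 2-fold falls numbered 544 (53.4%) and more than 2-fold rises 204 (44.8%). Past 4-fold there were 124 falls (12.2%) and 23 rises (5.05%). These folds belong to gene models picked by the same test, which favours large estimates. When the change itself was required to exceed 1.5-fold beyond its error, 264 gene models (2.42%) were lower and 49 (0.449%) higher, together 2.87%, in edgeR's test against that threshold. The latter went to 32 without ZT5 pooled F.

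The balance of falls and rises rests on the scaling. Scaled by library totals alone, 1297 gene models were higher and 640 lower at ZT9 in the same edgeR test, and the median change of all gene models was then 0.258 log2 units, against 0.027 with TMM factors. All 455 rises and 640 of the 1019 falls were called the same way under either scaling. Scaled by DESeq2's size factors, 592 were higher and 969 lower.

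**Figure D1:**
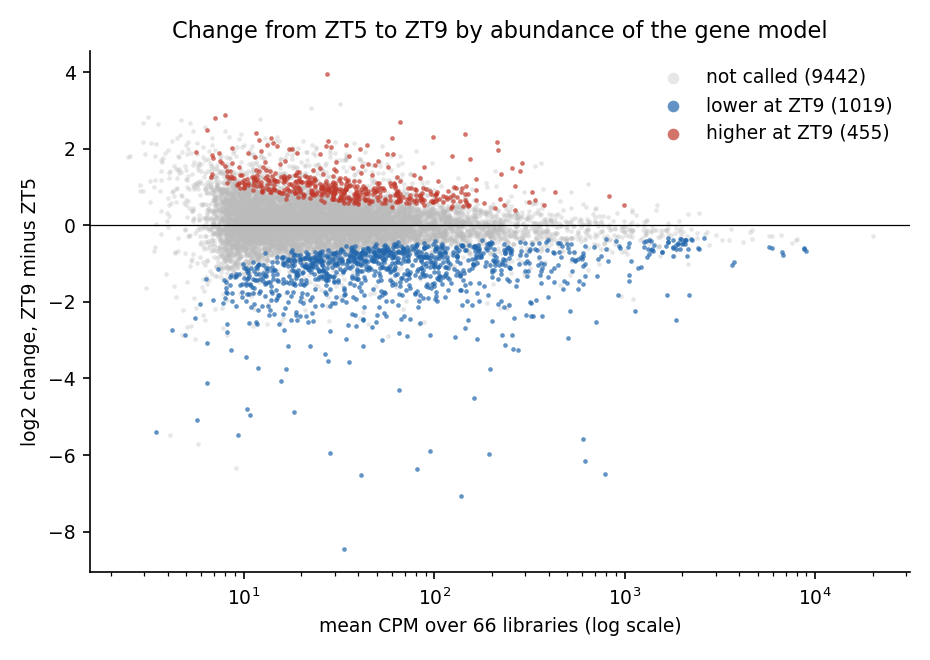
Log2 change of each of the 10916 gene models from ZT5 to ZT9 (vertical axis) against its mean CPM over all 66 libraries (horizontal axis, log scale), with the 1019 lower gene models in blue, the 455 higher ones in red and the rest in grey. Falls dominate at the abundant end, where 509 of the 2729 most abundant are lower and 125 higher under this scaling.

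Separation between single libraries was less common than a passed test. Every ZT9 library lay below every ZT5 library for 358 gene models (3.28% of those tested) and above for 106 (0.971%). Of the called gene models, 352 falls (34.5%) and 94 rises (20.7%) had no overlap between the 7 and 7 libraries. When each of the 14 libraries was left out in turn, 654 falls (64.2%) and 241 rises (53%) passed in the same direction in all 14 edgeR fits. Of these, 534 falls and 212 rises also passed under 7 other settings, which were the 2 other scalings, DESeq2, limma with quality weights, thinned counts, the 14 libraries alone with the same gene models and the fit without 4 libraries that share a gene block described further on.

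The rising gene model with the smallest p was NVE19553. Its level at ZT5 was 6.78 CPM in the lowest library, 9.6 in the median one and 20.3 in the highest, and at ZT9 it was 34.7, 43.8 and 65.9 CPM. All 7 ZT9 libraries stood above all 7 ZT5 libraries. The log2 change was 2.06 (SE 0.31, edgeR adjusted p = 2.8e-06), a fold of 4.17. In the hours between, NVE19553 was already at 42.4 ± 17.5 CPM at ZT6 (SD, n = 6), and it stood at 28.2 ± 8.57 CPM at ZT8 and 29.1 ± 7.36 at ZT12 (SD, n = 7 each).

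NVE16965 followed with 10.9, 20.3 and 32 CPM in the lowest, median and highest ZT5 library and 44.8, 97.7 and 103 CPM at ZT9. Its groups did not overlap either, and its log2 change was 2.01 (SE 0.32, edgeR adjusted p = 8.03e-06). Its hourly means were 32 ± 17.5 CPM at ZT6 (SD, n = 6), 36.7 ± 15.7 at ZT7 and 42.7 ± 13.9 at ZT8, and 44.2 ± 29 after the peak at ZT10 (SD, n = 7 each). At ZT9 the mean was 85.5 ± 22.6 CPM (SD, n = 7), so that the highest hour of this gene model was the one compared.

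The falling gene model with the smallest p was NVE228, the 650th most abundant of those tested. Its level was 289, 471 and 725 CPM in the lowest, median and highest ZT5 library and 38.5, 59.2 and 114 CPM at ZT9. The lowest ZT5 library was thus above the highest ZT9 library. The log2 change was -2.87 (SE 0.3, edgeR adjusted p = 8.79e-10), a fold of 7.32. Means of the hours between were 264 ± 113 CPM at ZT6 (SD, n = 6), 221 ± 139 at ZT7 and 188 ± 92.4 at ZT8, and the mean was 209 ± 72.3 CPM at ZT10 (SD, n = 7 each).

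NVE7699 had 64.8, 78.3 and 107 CPM in the lowest, median and highest ZT5 library and 8.7, 13.3 and 17.8 CPM at ZT9. Neither hour showed a library near the other hour's range. Its log2 change was -2.65 (SE 0.32, edgeR adjusted p = 6.6e-08), a fold of 6.27. It stood at 28.8 ± 5.61 CPM at ZT8 and at 48.8 ± 28.1 at ZT10 (SD, n = 7 each).

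**Figure D2:**
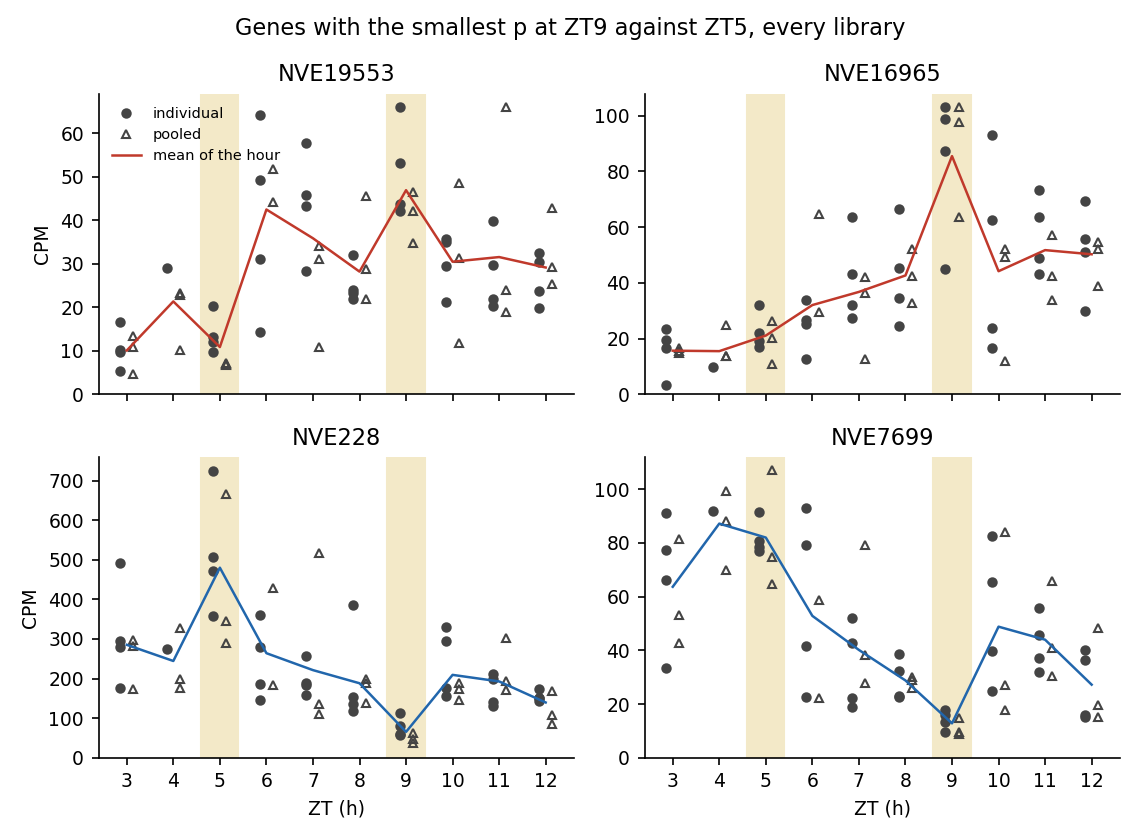
CPM (vertical axis) of the 4 gene models with the smallest p at every hour from ZT3 to ZT12 (horizontal axis), with single-animal libraries as filled circles, pools as open triangles and the mean of the hour as a line. At the shaded hours ZT5 and ZT9 the libraries do not overlap in any of the 4, with NVE228 at 289 to 725 CPM and at 38.5 to 114 CPM.

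Falls were concentrated among abundant transcripts. Among the 2729 gene models with the highest mean level over all 66 libraries, 509 (18.7%) were lower and 125 (4.58%) higher at ZT9. Among the 2729 with the lowest mean level the numbers were 94 (3.44%) and 69 (2.53%). Low counts give the test less to work with, so these shares are not on equal terms. Of the 100 most abundant gene models, each with a mean of at least 1420 CPM, 43 were lower and 0 higher in edgeR's test. DESeq2's size factors gave 44 and 0 of the 100. Library totals alone gave 24 lower and 2 higher of the 100, and turned the top 2729 to 331 lower and 375 higher. The called falls among the 2729 most abundant had a median of 0.912 on the log2 scale, against 1.54 among the 2729 least abundant, where a fall has to be larger to pass. The median change of all 100 most abundant gene models, called or not, was -0.376 log2 units with TMM factors and -0.143 with library totals alone, where those of all gene models were 0.027 and 0.258.

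The weight of the falling transcripts in a library was read as their share of its total counts, without TMM factors. The sets themselves were called with TMM factors. The 1019 falling gene models held between 28.2% and 32.1% of the counts of a ZT5 library, with a median of 29%. At ZT9 they held between 17.4% and 20%, with a median of 19.4%. The 455 rising gene models held 1.28% to 1.86% at ZT5 and 3.25% to 4.16% at ZT9. The counts that the falling set no longer took were mostly spread over gene models that did not pass, whose share was 66.1% ± 1.48 at ZT5 and 74.1% ± 0.769 at ZT9 (SD, n = 7 each). Since the sets were chosen on these 14 libraries, the gaps between the 2 hours are descriptive. ZT5 pooled E owed part of its share to the gene block described further on, and without that block its share in the falling set was 25.1% rather than 30.9%.

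The levels of these gene models were also read at the other 8 hours, which did not enter the contrast. Their libraries did enter the filter and the estimate of spread, and with the 14 libraries alone and the same gene models 370 of the 455 rises and 789 of the 1019 falls were called. The share of counts in the falling set had a median of 25.4% at ZT6, 24.1% at ZT7 and 23.4% at ZT8, against 19.4% at ZT9. It was 22.1% at ZT10, 25.2% at ZT11 and 21.9% at ZT12. Before ZT5 it was 27.2% at ZT3 and 27.6% at ZT4, or 26.3% and 25.7% without the gene block, which 3 libraries of these hours carry. The hours on either side of ZT9 thus lay above it and the hours on either side of ZT5 lay below it, as selection of the 2 hours alone would also tend to give. For the rising set the medians were 2.23% at ZT3, 2.47% at ZT4, 1.71% at ZT5 and 2.17% at ZT6, then 2.49% at ZT7, 2.66% at ZT8 and 3.53% at ZT9. They were 2.86% at ZT10, 2.28% at ZT11 and 2.94% at ZT12.

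Libraries of 1 hour did not all stand at the same point of this course. At ZT10 the share in the falling set ran from 20.4% in individual C to 27.8% in individual D and in pooled E, a wider range than the 17.4% to 20% of ZT9. At ZT7 pooled E held 29.5%, inside the ZT5 range, and the other 6 ZT7 libraries held between 21.4% and 26.5%. At ZT6 individual B held 28.6% and individual C 30.4%, again inside the ZT5 range. So did ZT3 individual A at 28.32% and B at 28.25%, and ZT4 individual C at 29.72% and pooled D at 28.78%. Of these, ZT3 individual B and ZT4 individual C carry the gene block. Without the gene block the ZT5 range was 25.1% to 32%, with ZT5 pooled E lowest, and ZT3 individual B lay outside it at 21.8%. Further libraries of ZT3, ZT6, ZT7, ZT10 and ZT11 then lay inside it, among them ZT7 individual A at 26.5% and ZT10 individual D at 27.8%. No ZT9 library reached the ZT5 range with or without the block, the highest being at 20%.

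**Figure D3:**
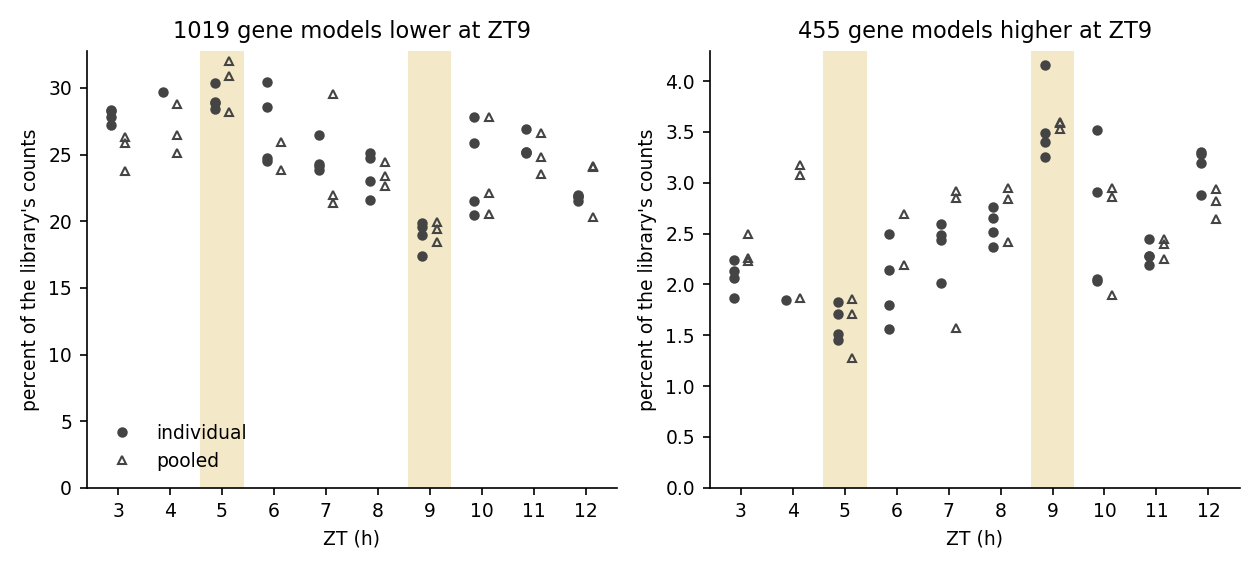
Percent of each library's counts (vertical axes) in the gene models lower at ZT9 (left panel) and higher at ZT9 (right panel), by hour from ZT3 to ZT12 (horizontal axes), with single animals as filled circles and pools as open triangles. The shaded hours chose the sets, and the falling set ranges from 28.2% to 32.1% at ZT5 and from 17.4% to 20% at ZT9.

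Single animals and pools are different animals, so the change could be measured in one kind of library and looked at in the other. The single animals alone (37 libraries over 10 hours in the fit, 4 against 4 in the contrast) gave 498 lower (4.56%) and 217 higher (1.99%) gene models in edgeR's test, together 6.55%. The pools alone (29 libraries, 3 against 3) gave 42 lower (0.385%) and 4 higher (0.0366%), together 0.421%. In simulated counts of independent genes the test recovered 63.3% of 4-fold and 12.9% of 2-fold changes in the single animals, and 41.7% and 5.71% in the pools. Only 60 gene models were changed by 4-fold and 70 by 2-fold there, with the spread taken from the fit of all libraries. These rates therefore need not hold for the data. The count of rises in single animals went to 100 without ZT5 B, 105 without ZT5 C, 128 without ZT5 D, and 137 without ZT9 A or ZT9 D, and that of falls to 318 without ZT5 B. The pooled calls depended on almost every pool. Falls numbered 68 without ZT5 E, 2 without ZT5 F, 3 without ZT9 E, 0 without ZT9 F and 1 without ZT9 G, and rises numbered 7 without ZT5 G and 0 without ZT5 F or any 1 of the 3 ZT9 pools.

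The gene models picked in single animals moved the same way in the pools. Of the 498 falls, 479 (96.2%) had a lower level in the ZT9 pools, where 47.4% of all tested gene models did. An unadjusted p below 0.05 in the same direction was reached by 311 of them (62.4%), against 8.19% of all tested gene models. Their median change was -1.24 log2 units in the single animals that picked them and -1.01 in the pools. Of the 217 rises, 205 (94.5%) had a higher level in the ZT9 pools, against 52.6% of all, and 96 (44.2%) had an unadjusted p below 0.05 in that direction, against 5.16%. The median change of the rises was 1.26 in single animals and 0.799 in pools. In the reverse direction, 42 of the 42 falls and 4 of the 4 rises picked in pools had the same sign in single animals. With the sets redrawn without the 4 libraries of the gene block, 97.1% of 547 falls and 94% of 232 rises picked in single animals kept their sign in the pools. The fits of single animals and of pools shared no library. Both kinds of library share the time point of each hour, and the filter on gene models used all of them. The pair of hours was also chosen with earlier results of these data known. The agreement is therefore not an independent check of the change between the hours.

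From ZT3 to ZT12, the gene models picked in single animals were also followed through the pools, where the ZT9 pools stood highest. For each library the mean log2 CPM of the 498 falling gene models was subtracted from that of the 217 rising ones. Among pools this difference was -2.66, -1.77 and -1.42 at ZT5 and -0.056, -0.055 and -0.053 at ZT9. At ZT7 and ZT10 1 pool each, pooled E at both hours, lay at -2.34 and -2.1, while the other pools of those hours lay between -0.718 and -0.419. At ZT12 the pools lay between -0.866 and -0.451.

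**Figure D4:**
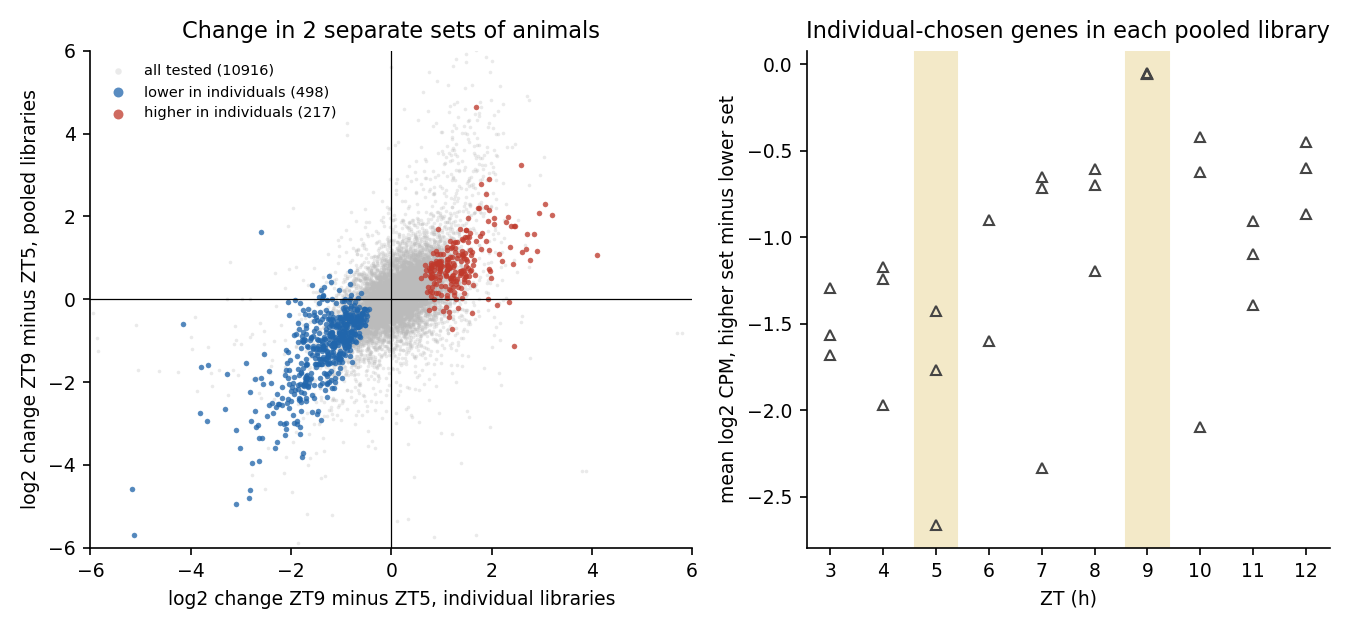
Left, log2 change from ZT5 to ZT9 in pools (vertical axis) against that in single animals (horizontal axis) for all tested gene models in grey, with those lower (blue, 498) and higher (red, 217) in single animals; 40 gene models lie outside the axes. Right, mean log2 CPM of the 217 minus that of the 498 (vertical axis) in each pooled library by hour (horizontal axis), from -2.66 to -1.42 at ZT5 and near -0.05 at ZT9.

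In single animals the rise with the smallest p was that of NVE19553, described above, and the next was NVE7154. The 4 animals had 28.8, 25.5, 22.5 and 30.5 CPM of NVE7154 at ZT5 and 74.7, 70.5, 74.4 and 132 CPM at ZT9. The animals of the 2 hours were well apart, with a log2 change of 1.72 (SE 0.32, edgeR adjusted p = 0.0014). The pools had 38.6, 7.28 and 13.6 CPM at ZT5 and 81.9, 103 and 86.6 CPM at ZT9, a log2 change of 2.2 that did not pass on its own (SE 0.67, edgeR adjusted p = 0.128).

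The steepest of the leading falls in single animals was that of NVE8297. It had 101, 201, 158 and 123 CPM at ZT5 and 14.4, 9.53, 11.1 and 9.42 CPM at ZT9. Every ZT5 animal was far above every ZT9 animal, and the log2 change was -3.66 (SE 0.45, edgeR adjusted p = 2.3e-05), a fold of 12.6. In the ZT5 pools it had 38.6, 52.8 and 33.9 CPM, all below the single animals of that hour, and in the ZT9 pools 11.6, 13 and 16 CPM. NVE24070 had 51.2, 95.3, 152 and 130 CPM in ZT5 animals and 6.02, 8.57, 11.1 and 16.1 CPM in ZT9 animals (log2 change -3.32, SE 0.42, edgeR adjusted p = 2.3e-05). Its pools were on the same side, at 52.6, 74.6 and 29.4 CPM and at 7.35, 8.7 and 8.01 CPM.

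In pools the leading rises were those of NVE10533 and NVE23099. NVE10533 had 14, 9.1 and 13.6 CPM in the ZT5 pools and 44.1, 65.2 and 68.9 CPM in the ZT9 pools (log2 change 2.3, SE 0.43, edgeR adjusted p = 0.0139). Its single animals overlapped, at 15.2 to 39.2 CPM and 23.3 to 51.8 CPM, and did not pass (log2 change 0.5, edgeR adjusted p = 0.466). NVE23099 was barely present in the ZT5 pools, with 1, 0 and 0 counts, and had 17, 17 and 11 counts in the ZT9 pools (edgeR adjusted p = 0.0244). In single animals NVE23099 was at 3.4 to 6.4 CPM at ZT5 and at 13.3 to 16.9 CPM at ZT9, without overlap. It also passed there (log2 change 1.69, SE 0.45, edgeR adjusted p = 0.0198). The pooled calls of both were lost without ZT5 pooled F or without any 1 of the 3 ZT9 pools, where the adjusted p of NVE10533 reached 0.132 and that of NVE23099 0.148. That of NVE23099 was also lost without ZT5 pooled G, at 0.0755, and in limma with quality weights, at 0.226.

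The leading falls in pools were those of NVE2856 and NVE228. NVE2856 had 450, 322 and 330 CPM in the ZT5 pools and 25.2, 14.5 and 36.9 CPM in the ZT9 pools (log2 change -3.8, SE 0.55, edgeR adjusted p = 0.00351), a fold of 14. Its single animals were at 73.2 to 210 CPM and at 18.1 to 46.7 CPM, without overlap (log2 change -1.78, SE 0.45, edgeR adjusted p = 0.0149). NVE228, described above, had 345, 666 and 289 CPM in the ZT5 pools and 47.3, 63.8 and 38.5 CPM in the ZT9 pools (edgeR adjusted p = 0.0107). The pooled call of NVE2856 was lost without ZT9 pooled F, at 0.0729, and that of NVE228 without ZT5 pooled F or any 1 of the 3 ZT9 pools, at up to 0.0945.

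Whether the change itself differed between the 2 kinds of library was tested as an interaction. Of the 10916 gene models 0 (0%) passed edgeR's test, in which no adjusted p was under 0.217. Unadjusted, 3.59% had a p below 0.05, less than the share of 0.05 that no difference at all would give. Of these, 137 had a higher and 255 a lower change in pools. DESeq2 called 6 and limma with quality weights 0. The median SE of this difference was 0.615 log2 units, so that modest differences were not detectable. Among the smallest p values, NVE21433 had a change higher by 2.54 log2 units in pools (SE 0.69), NVE21821 one of -1.36 (SE 0.35) and NVE21116 one of -2.09 (SE 0.57), each with an edgeR adjusted p of 0.903.

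The smallest p of the interaction belonged to NVE2697. Its single animals had 17.6, 216, 9.38 and 487 CPM at ZT5 and 30.1, 26.7, 28.9 and 35 CPM at ZT9. Its pools had 8.76, 9.1 and 11.3 CPM at ZT5 and 18.9, 29 and 41.7 CPM at ZT9. ZT5 animals B and D were thus far above every other library, and the other 5 ZT5 libraries lay below all 7 ZT9 libraries. Over all 14 libraries NVE2697 was called lower at ZT9 (log2 change -1.67, edgeR adjusted p = 0.0177), although its median was 11.3 CPM at ZT5 and 29 CPM at ZT9. The call was lost without ZT5 D (log2 change -0.483, edgeR adjusted p = 0.48) and without ZT5 B (-1.43, edgeR adjusted p = 0.0549).

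Calls against the medians were rare. For 12 of the 1019 falling gene models and 0 of the 455 rising ones, the median of the 7 ZT9 libraries did not lie on the called side of the ZT5 median, and 10 of the 12 belonged to a block of gene models that set 1 library apart.

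ZT5 pooled E carried this block, which it shared with ZT3 individual B, ZT4 individual C and ZT4 pooled E. The block was taken as the gene models that reached, in each of these 4 libraries, at least 10 counts and at least 5 times the highest CPM of the other 62. This gave 17 gene models, all of them tested, and 15 were called lower at ZT9, where 9.33% of all tested gene models were. The other 62 include every ZT9 library, so the rule itself favours such calls. The 15 calls and the p values below are therefore no separate result. The 17 gene models took 5.8% of the counts of ZT5 pooled E, and at most 0.0119% in the other 6 ZT5 libraries and 0.0224% in any ZT9 library. NVE10468, the highest in that library, had 9904 counts or 17400 CPM there, 5.11 to 30 CPM in the other 6 ZT5 libraries and 15.2 to 40.9 CPM at ZT9. NVE7148 had 6926 counts or 12100 CPM there, 4.8 to 18.8 CPM in the other 6 and 13 to 39.9 CPM at ZT9. With all libraries their log2 changes were -6.49 and -6.16 (SE 1.62 and 1.57, edgeR adjusted p = 0.00375 and 0.00444).

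Without ZT5 pooled E both changed sign, to 0.904 and 1.69 log2 units, and neither passed (edgeR adjusted p = 0.679 and 0.415). Of the 17 gene models 7 still had enough counts to be tested then, and 0 were called in either direction. The median at ZT9 was above that of the other ZT5 libraries for 11 of the 17. The mean share of the 17 in the counts was then 0.00726% at ZT5 and 0.0167% at ZT9 (exact permutation adjusted p = 0.0171). Over all 14 libraries the same test, with means of 0.835% and 0.0167%, did not pass. Nor did it pass with any other library left out. The block was also defined after the data were seen, so this p value is no separate result. The comparison as a whole was not carried by that library. Without it 1000 gene models were lower and 609 higher at ZT9 in edgeR's test, of which 921 and 411 were among the 1019 and 455. Without all 4 libraries of the block the numbers were 1024 lower and 660 higher, with 922 and 410 shared. The 15 calls of the block are therefore calls of 1 library, and the lists of falling gene models above include them.

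Of the 45 pairs of hours tested in the same fit, this pair gave the most calls, 1474 (13.5%). Next came ZT9 against ZT6 with 1128, ZT12 against ZT5 with 1113, ZT9 against ZT3 with 1091 and ZT9 against ZT4 with 1060, and the median pair gave 142. These pairs share libraries, so their counts are not independent, and the pair was chosen for this position. Without the 4 libraries of the block it also ranked 1 of 45, with 1684 calls, while ZT9 against ZT4 went from 1060 to 401. For that pair the counts are not on equal terms, since ZT4 lost individual C and pooled E of its 4 libraries. Seen from ZT5, calls numbered 99 at ZT6, 285 at ZT7, 308 at ZT8, 1474 at ZT9, 71 at ZT10, 142 at ZT11 and 1113 at ZT12. The ZT10 libraries also had the wide range described above, and its part in the small number for that hour was not tested.

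**Figure D5:**
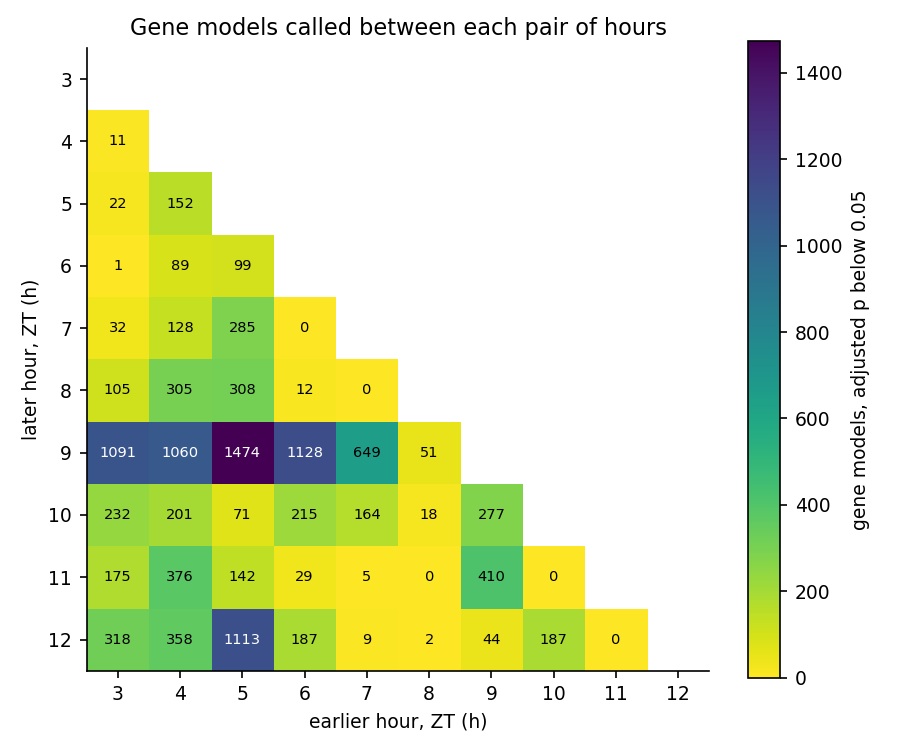
Number of gene models called at an adjusted p below 0.05 between each earlier hour (horizontal axis, ZT) and later hour (vertical axis, ZT), from 1 edgeR fit of all 66 libraries; darker cells hold more calls. The cell of ZT5 and ZT9 holds 1474, and the row of ZT9 is high against every hour from ZT3 to ZT7.

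Spread between libraries of an hour was read in 2 ways, which gave different orders. The median over gene models of the SD of log2 CPM within hour and sample type was 0.484 at ZT5 and 0.417 at ZT9. The biological coefficient of variation from edgeR's common dispersion was 38.8% at ZT5 and 41.3% at ZT9. The ratio of the median SDs, ZT9 over ZT5, stayed between 0.787 and 0.925 when each library was left out, and no test was made. The ZT5 libraries had the lower mean total, and the part of depth in the SD was not tested.

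Of the 24265 gene models in the table, 1259 had no count in any ZT5 library and some at ZT9, and 735 the reverse, with 1087 at 0 in all 14. The ZT9 libraries were the deeper ones, and the part of depth in these numbers was not tested. Only 3 gene models at 0 in all ZT5 libraries had counts in all 7 ZT9 libraries, and 1 showed the reverse. The highest count over the 7 ZT9 libraries of a gene model at 0 in all ZT5 libraries was 23. In the reverse direction it was 278, for NVE16085, which had 64, 55, 114 and 0 counts in the 4 single animals of ZT5, 45, 0 and 0 in the pools of ZT5 and 0 in all 7 ZT9 libraries. This gene model was chosen after its values were seen, and its filled and empty libraries occurred side by side at ZT5.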

How the data were processed

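The authors deposited whole-number counts per gene model, 24265 gene models by 66 libraries, per the file headers with no normalisation. Per the labels, RNA of whole preserved animals was sequenced and the genome named is that of Putnam and colleagues. Bowtie2 is named in the submitters' processing notes without a version. Counting tool, annotation version, strand setting and treatment of duplicates are not stated in the labels or headers. Members of gene families may have shared or lost reads, overlapping genes cannot be told apart, and counts may include amplification.

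Counts were tested as deposited in R 4.3.3 with edgeR 4.0.16 (quasi-likelihood F test, robust, TMM; filter by expression with minimum count 10 and hour as group, leaving 10916 gene models with 97.2% of counts; 55 residual degrees of freedom). Adjusted p values follow Benjamini and Hochberg, over all gene models tested. The single-animal and pooled fits used the same 10916. CPM carry TMM factors, and log2 CPM a prior count of 2. SE is the log2 change over the square root of F. Library totals ran from 251647 to 909746. Alternatives used DESeq2 1.42.0 and limma 3.58.1. On simulated counts of 10916 independent genes, 70, 70 and 60 were changed by 1.5-, 2- and 4-fold. The comparison over all libraries recovered 5.71%, 35.7% and 85% of these changes, with 0 false calls. Far more gene models were called in the data, so these figures need not carry over. Over the 91 pairs of the 14 libraries chi-square per degree of freedom was at least 3.63, so all were counted apart. ZT4 library D is labelled as a pool, against the protocol, and the label was followed.

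Named gene models were the 2 with the smallest p in each direction among those called (for the interaction, whether called or not), and the 2 highest block members in ZT5 pooled E. NVE16085 was named after its values were seen. The hours compared, the block libraries, the lists and the tests were chosen with earlier results of these data known. Gene lists by function could not be applied without names. The rule that defines the block, 2 settings (the axis score as covariate, and the 14 libraries with the same gene models) and the counts of calls kept across settings were chosen after seeing the data.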

Additional observations from a re-analysis of the deposited data

Results flagged for a closer look

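Within each hour, the 7 values of every named gene model and of 5 library measures were searched for a library whose gap to its nearest neighbour was large for the range of the 7. Chance picks out about 1 in 20 such groups. Of 42 groups 4 were picked out, but 3 of them follow from the choice of items, since the block was defined by ZT5 pooled E and 3 other libraries and its 2 gene models were named as the highest in it, so the number is not one to set against chance. These 3 were ZT5 pooled E, with NVE10468 at 17400 CPM against at most 30 in the other 6, NVE7148 at 12100 CPM against at most 18.8, and 5.8% of counts in the block against at most 0.0119%. At ZT9, pooled F had 24.6 CPM of NVE23099, where the next library had 17.9.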

How the results depend on the processing

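Direction and rough size of the main counts held under DESeq2, limma, DESeq2's size factors, no filter, thinned counts, no ZT4 and no covariate. Scaling by library totals alone moved the counts to 1297 higher and 640 lower, to 94 and 168 beyond 1.5-fold, to 423 and 316 in single animals, and to 23 falls in pools. With the leading axis of variation between libraries as covariate, a setting added after the data were seen, 893 were higher and 1224 lower. Limma gave 10 higher and 144 lower beyond 1.5-fold, and 8 and 171 in pools. DESeq2 gave 20 and 215 in pools and 6 for the interaction. No filter on low counts left 110 rises in single animals. The 14 libraries alone gave 123 rises in single animals and 15 rises and 146 falls in pools. With the 500 smallest p in place of called gene models, the same sign was kept by 97.7% of rises picked in single animals and 89.1% of falls picked in pools. For the 1000 most abundant gene models the share of counts differed by -5.95 percentage points (exact permutation adjusted p = 0.0114). The causes were not tested.

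Left out in turn, the 14 libraries gave 344 to 609 rises and 786 to 1000 falls, 32 to 66 and 180 to 262 beyond 1.5-fold, 100 to 218 and 318 to 524 in single animals, 0 to 7 and 0 to 68 in pools, and 0 to 1 for the interaction. Library totals then differed by 96780 to 151800 counts, gene models detected by 1058 to 1389, the share of the 100 most abundant by -4.26 to -2.75 percentage points and that of the block by -0.956 to 0.00942. The log2 change of NVE10468 then ran from -6.8 to 0.904 and that of NVE7148 from -6.47 to 1.69, the upper ends without ZT5 pooled E. Without the 4 block libraries these changes were 0.833 and 1.53, and for NVE7148 it was 0.548 in limma.

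Pairing of the libraries by letter was not tested. Same-lettered libraries of ZT5 and ZT9 correlated in their deviations from the hour by -0.0549 to 0.43, above 0.1 for 3 of 7 letters, and 3 of 7 ZT5 libraries correlated best with their own letter. With the letter as a block, 441 gene models were higher and 989 lower. With counts thinned to equal totals the pools gave 35 falls against 42 at full depth, and the part of depth and of the number of pools in their low counts was not told apart.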

Other observations

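NVE16085, which had 0 counts in all 7 ZT9 libraries, was filled or empty by library at every other hour. It had at least 10 counts in 4 of 7 libraries at ZT3, ZT5 and ZT7, in 1 of 4 at ZT4, in 2 of 6 at ZT6, in 2 of 7 at ZT8, ZT10 and ZT11, and in 1 of 7 at ZT12. Its highest counts were 117 at ZT6, 101 at ZT10 and 21 at ZT12, and between 2 and 5 libraries of each of these 9 hours had 0 counts. It was chosen after its values were seen and no test was made.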
